A study of Mus musculus with 95 samples.

Results

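The imprinted Dlk1-Dio3 microRNA cluster was followed in small RNA libraries of striatum, cortex and liver from Huntington's disease knock-in mice and their wild type littermates. Its members were the 43 rows of the count table, of 1881 rows in all, listed by identifier as miRNA hairpins of this locus. The rule for membership uses the identifiers and no measured value. Of the 43 members, 37 had a count in some library and 6 had none (MI0003133, MI0003676, MI0003677, MI0003678, MI0005539 and MI0005540).

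The knock-in (KI) mice were heterozygous for zQ175, an allele of the mouse Huntington's disease gene that carries an expanded CAG repeat, and the wild type (WT) mice were their littermates. The neo-deleted line (CHDI-81003019) had lost the neomycin resistance cassette of the targeting construct, and the neo-intact line (CHDI-81003003) had kept it. All mice were on a C57BL6/J background, were aged 6 months, and came as 4 males and 4 females per genotype and line. The 95 libraries from 32 mice gave 12 groups of 8 libraries by tissue, line and genotype, with 7 in the striatum of neo-deleted KI mice. The samples were left striatum, left cortex and a lobe of the liver, so that every brain library is RNA of a whole piece of tissue, in which fewer cells of a type and less RNA per cell cannot be told apart. Nothing in these tables measures the zQ175 allele.

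Every library is named with an L followed by a number. The labels do not say what this L number means. Library totals ran from 74537 to 496036 counts. Libraries numbered L8 (26 of them) were the deepest, with a median of 419438 counts, against 117175 in the other 69. Striatum libraries carried L7 (17 libraries) or L8 (14), cortex libraries L1 (19), L2 (1) or L8 (12), and liver libraries L1 (7), L2 (18) or L3 (7). The genotypes were spread unevenly over these numbers. In neo-intact striatum, 3 KI libraries were L7 and 5 were L8, against 7 and 1 WT libraries. In neo-intact cortex all 8 KI libraries were L1, against 3 L1, 1 L2 and 4 L8 WT libraries. Every KI comparison therefore carried the L number as a term. The single L2 cortex library had a term of its own and so added nothing to the KI comparison.

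The cluster lies in the mammalian locus between the genes Dlk1 and Dio3. On the maternally inherited chromosome long noncoding transcripts are made there (Meg3, Rian and Mirg in the mouse), and hairpins within them are processed into many microRNAs. The paternally inherited chromosome expresses protein-coding genes instead, among them Dlk1 and Rtl1. The cluster is known for high expression in the brain and, after birth, for little expression in liver. MicroRNAs act by pairing of bases 2 to 8, the seed, with target mRNAs, so members with one seed can share targets.

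In RefSeq annotation of GRCm38.p6, Dlk1 lies at chr12:109452485-109463336 and Dio3 at chr12:110279230-110281097, with Meg3 at chr12:109540996-109571729, Rian at chr12:109603945-109661716 and Mirg at chr12:109734981-109749458. For the interval between Dlk1 and Dio3 the RefSeq table lists 58 hairpins, 54 on the plus strand and 4 on the minus strand, and 113 mature sequences of 61 miRNA genes. The RefSeq tables list no MI identifier (0 of 43 members were found), and the files pair none with a name. A member below is therefore called by its identifier, and no sequence here is assigned to a member. The mouse sequences that follow show what the locus encodes. They are 7 of the 10 arms of the 5 miRNAs that the member list names as examples (mir-127, mir-379, mir-134, mir-541 and mir-410), read 5′ to 3′ with the seed in capitals, and all lie on the plus strand.
mmu-miR-127-5p: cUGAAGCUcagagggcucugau
mmu-miR-127-3p: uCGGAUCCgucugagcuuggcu
mmu-miR-379-5p: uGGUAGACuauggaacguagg
mmu-miR-379-3p: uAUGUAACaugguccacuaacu
mmu-miR-134-5p: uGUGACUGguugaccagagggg
mmu-miR-541-5p: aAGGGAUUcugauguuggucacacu
mmu-miR-410-3p: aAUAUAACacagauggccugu

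The hairpins of these miRNAs lie at chr12:109592846-109592915 (Mir127), chr12:109709060-109709125 (Mir379), chr12:109734139-109734209 (Mir134), chr12:109742409-109742498 (Mir541) and chr12:109743715-109743795 (Mir410). Most mature sequences of the locus had a seed of their own, and 9 seeds were shared by a pair of mature sequences each (18 sequences). The next 3 sequences show such sharing. The first has the seed of mmu-miR-379-3p above, and the other two share one seed and differ by little outside it.
mmu-miR-411-3p: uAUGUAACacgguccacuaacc
mmu-miR-376b-5p: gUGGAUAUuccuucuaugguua
mmu-miR-376c-5p: gUGGAUAUuccuucuauguuua

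Reads of such near-identical sequences could be divided between hairpins when counts are made. Of the 43 members, 3 (MI0000776, MI0002466 and MI0000784) had estimated counts that were not whole in some library, and their values are the least certain in this respect. The source species of the rows is not stated. Lengths implied by counts and FPKM were 114 bases for MI0001721, 102 for MI0003136 and 93 for MI0001723. No mouse hairpin listed between Dlk1 and Dio3 has any of these lengths. Where a row is a hairpin of another species, a mouse read was counted only where it matched the hairpin of that species. Because the rows carry no names, the lists of tissue markers could not be applied, and the tissue labels were not checked against named markers.

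In both brain tissues most of the cluster was seen in every library. A rounded count of at least 1 was found in 50% or more of the libraries for 34 members in striatum, 34 in cortex and 5 in liver, and in all libraries of the tissue for 29, 26 and 1. A single library held a median of 33 members in striatum (31 to 36), 33 in cortex (29 to 35) and 5 in liver (2 to 11). Members absent from a tissue lie below a floor of 3 counts over its libraries, which was 0.382 CPM (counts scaled to a fixed library total) in striatum, 0.385 in cortex and 0.892 in liver. Floors cover counting error only.

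The cluster took up a large share of the small RNA counts in brain and almost none in liver. Its summed share was 22.7% ± 3.25 of all counts in striatum (SD, n = 31), 19.02% ± 3.12 in cortex (SD, n = 32) and 0.0639% ± 0.024 in liver (SD, n = 32). Most of it was a single member. MI0000472 had 191418 ± 40063 CPM in striatum, 164841 ± 35583 CPM in cortex and 550.3 ± 227 CPM in liver, and made up 81.99% of the cluster's brain counts. The other 42 members together took 3.60% ± 0.813 of striatum counts and 2.54% ± 0.574 of cortex counts. Per length (FPKM, the deposited values per kilobase of feature), MI0000472 was first and MI0003675 second in both brain tissues. MI0000472 had 1973366 ± 413009 FPKM in striatum and MI0003675 had 86324 ± 29476, and no member's spread reached the level of MI0000472. In striatum MI0000789 followed with 79110 ± 26440 FPKM and MI0002465 with 77300 ± 30419, and these neighbours and MI0003675 differed from each other by less than their SD. MI0000475 came next with 45900 ± 16495 FPKM.

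**Figure D1:**
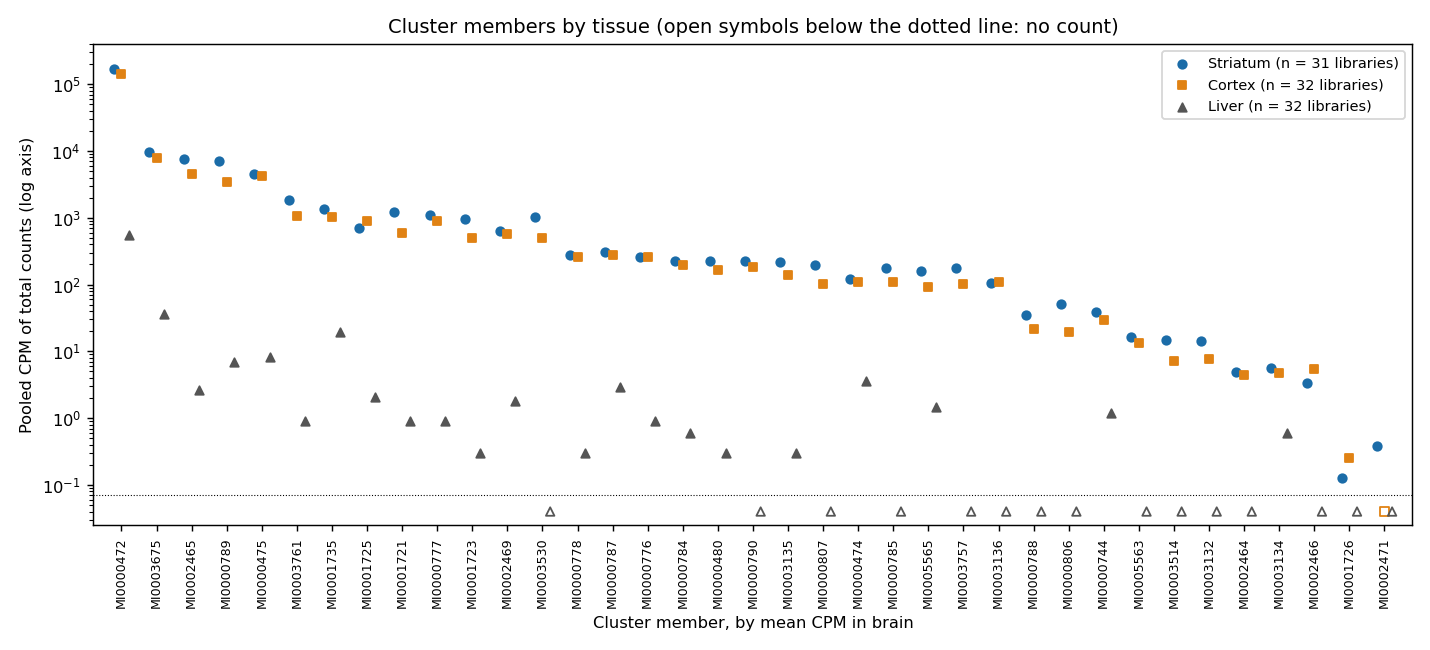
Pooled CPM of total counts (log axis) of the 37 members with a count, in striatum (circles, 31 libraries), cortex (squares, 32) and liver (triangles, 32), with open symbols for no count. MI0000472 stands apart in each tissue, and striatum and cortex symbols lie close together for most members while liver symbols lie far below or at no count.

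The 10 members with the highest mean level over the 63 brain libraries are given here by value. On the scale of TMM-scaled CPM (CPM after trimmed-mean scaling), MI0000472 averaged 182592, MI0003675 7397, MI0002465 4854, MI0000789 4214 and MI0000475 3532. MI0003761 averaged 1828, MI0001735 1160, MI0001725 1117, MI0001721 1031 and MI0000777 807. The order of members given above is that of FPKM, which divides by the length of the feature, and CPM need not give the same order. In striatum MI0002465 had 6184 ± 2433 CPM and MI0000789 5933 ± 1983, the reverse of their FPKM order. The mean TMM-scaled CPM only chose which 10 are given.

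Brain and liver were compared member by member in WT mice. Inside L1, the one L number with many libraries of both cortex and liver, cortex (8 libraries) was higher than liver (4 libraries) in all 21 members tested, with log2 differences of 4.98 to 9.08. Of all features tested, 92% were called in this comparison (edgeR quasi-likelihood test, Benjamini-Hochberg adjusted p under 0.05, a feature past it being called), and 58.5% were called higher in cortex. Members low in liver passed the filter on low counts through their cortex level, so that the shared direction of the 21 is not a result. The 3 largest differences were in MI0000789 (9.08, SE 0.36), MI0003761 (8.81, SE 0.36) and MI0001723 (8.68, SE 0.43), on 1, 1 and 0 liver counts. The 3 smallest were in MI0000787 (4.98, SE 0.43), MI0001735 (5.49, SE 0.27) and MI0000776 (5.68, SE 0.51), on 2, 7 and 1 liver counts. With each library left out in turn, MI0000789 ran from 8.71 to 10.99 and MI0003761 from 8.40 to 10.60, so this order is uncertain. Striatum and liver shared no L number, so tissue and L number cannot be told apart there. Over all WT mice (16 libraries each, from the same animals) striatum was higher than liver in all 22 members tested, against 92.1% of all features called and 59% called higher in striatum. Here too members low in liver passed the filter through their striatum level, and the shared direction of the 22 is not a result. The largest log2 differences were those of MI0003761 (10.45, SE 0.31), MI0002465 (10.17, SE 0.29) and MI0001723 (10.08, SE 0.24), on 1, 5 and 0 liver counts. The smallest were those of MI0000474 (5.02, SE 0.36), MI0005565 (5.41, SE 0.31) and MI0001735 (5.48, SE 0.27). All SEs against liver come from the fit and do not measure precision where liver held few or no counts.

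A fitted difference against a liver group at or near 0 depends on the prior count, so ratios of pooled CPM of total counts were also taken over all WT libraries (16 per tissue). MI0000472 had 139468 CPM in cortex and 171016 CPM in striatum, against 549.7 CPM in liver, which gave ratios of 254 and 311. For 9 members liver held more than 3 counts, and these ratios ran from 36.8 to 1530 for cortex and from 43.5 to 2322 for striatum. MI0002465 had the highest of them, with 4726 CPM in cortex and 7172 CPM in striatum, against 3.09 CPM in liver (5 counts). For 17 members liver held no count, and against the floor of 3 counts over the liver libraries (1.85 CPM) they were at least 2.32-fold to at least 296-fold higher in cortex. In striatum they were at least 1.802-fold to at least 528-fold higher, and MI0003530 had the highest bound in both tissues. A further 9 members had 1 to 3 liver counts, such as MI0003761, whose ratio of cortex to liver was 1622 with a 95% counting interval of 291 to 64085. No fold is given for the other 8 members. All these ratios and bounds pool libraries of every L number. Inside L1 (8 cortex and 4 liver libraries), 4 members had more than 3 liver counts, with ratios of cortex to liver of 54.8 to 211. The direction held under each scaling, which adds no result, since members low in liver passed the filter through their brain level. The median log2 difference of all features between cortex and liver depended on the scaling. It was 1.25 with trimmed-mean scaling, 0.90 with DESeq2 size factors and 1.51 with total counts.

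The liver counts were mostly those of MI0000472, which made up 83.7% of the 1063 member counts in WT liver. Over KI and WT mice it averaged 800.0 ± 238 CPM in the 7 liver libraries of L1, 469 ± 131 CPM in the 18 of L2 and 509 ± 257 CPM in the 7 of L3 (SD). L1 also holds 19 brain libraries, L2 holds 1 and L3 holds none. The part of reads from brain libraries in the liver values was not tested.

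Striatum and cortex shared only L8, so they were compared in the WT libraries of L8 (5 of striatum and 7 of cortex, with 1 mouse in both). More members were higher in striatum than in cortex. Of the 28 members tested, 11 were called higher in striatum and 1 lower. Of all features, 40.4% were called, 19.7% higher in striatum and 20.6% lower. The median log2 difference was 0.45 over the 28 members and -0.03 over all features.

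MI0000789 had the largest called difference. Its level in striatum was 7566, 7746, 7768, 8137 and 8398 TMM-scaled CPM, against a lowest value of 3518, a median of 3979 and a highest of 5770 in cortex. Every striatum library lay above every cortex library, and the log2 difference was 0.95 (SE 0.15, adjusted p = 0.000587, edgeR). MI0003530 was likewise separate, with 1064 to 1175 TMM-scaled CPM in striatum, against 475 to 954 in cortex (log2 difference 0.83, SE 0.18, adjusted p = 0.00348, edgeR). MI0001721 averaged 1020 ± 124 TMM-scaled CPM in striatum and 531.7 ± 75.9 in cortex (SD, n = 5 and 7), with a log2 difference of 0.81 (SE 0.15) that was called. MI0002465 averaged 8669 ± 1067 TMM-scaled CPM in striatum and 5439 ± 1240 in cortex, with a log2 difference of 0.67 (SE 0.19), also called.

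MI0001725 was the member called lower in striatum. Its level in striatum was 404, 413, 433, 458 and 460 TMM-scaled CPM, against a lowest value of 559, a median of 598 and a highest of 899 in cortex. The tissues did not overlap in L8, and the fitted difference was -0.79 on the log2 scale (SE 0.14, adjusted p = 0.000942, edgeR). Over all WT libraries of every L number, with the animal as a block, the difference was -0.21 with an adjusted p of 0.596 (edgeR). Striatum held L7 and L8 there and cortex L1, L2 and L8, so tissue and L number are partly mixed in that fit.

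The dominant MI0000472 averaged 134002 ± 9079 TMM-scaled CPM in striatum and 123840 ± 9267 in cortex (SD, n = 5 and 7). The tissues overlapped, and the log2 difference of 0.18 (SE 0.09) was not called (adjusted p = 0.121, edgeR). MI0000806 had the largest difference of all, 1.28 (SE 0.52), on 15 to 30 counts per library in striatum and 0 to 16 in cortex, and it was not called (adjusted p = 0.0694, edgeR). It became called without either of 2 libraries, at 0.99 (adjusted p = 0.0435) without cortex neo-deleted WT female 3 and at 1.78 (adjusted p = 0.0358) without striatum neo-intact WT male 3.

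**Figure D2:**
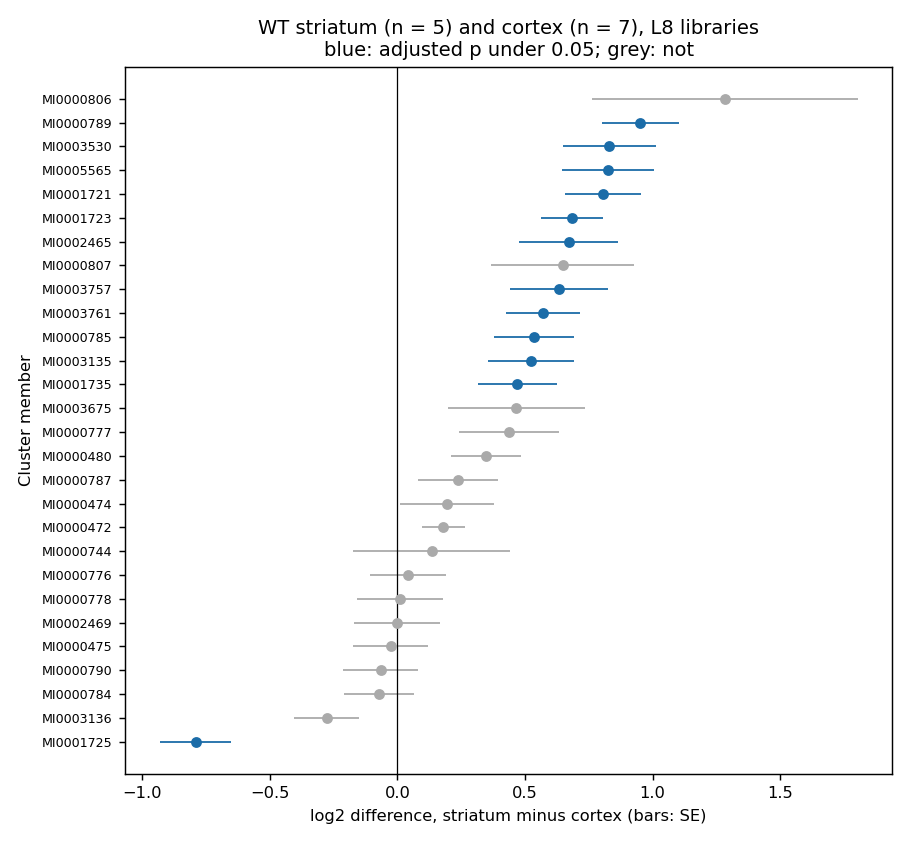
Log2 difference, striatum minus cortex, of the 28 members tested in WT libraries of L8 (5 of striatum, 7 of cortex), with SE bars and called members in blue. Of these, 11 lie right of 0 and MI0001725 lies left of it, at -0.79.

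The cluster's share differed by L number inside each tissue. It was 19.4% ± 0.95 in L8 and 25.5% ± 1.27 in L7 libraries of striatum (SD, n = 14 and 17), and 15.3% ± 1.02 in L8 and 21.2% ± 0.981 in L1 libraries of cortex (SD, n = 12 and 19). In striatum L8 libraries ran from 17.8% to 20.7% and L7 libraries from 23.1% to 27.7%, and in cortex L8 libraries ran from 13.2% to 17.4% and L1 libraries from 19.5% to 23.02%, without overlap in either tissue. MI0000472 made up 14.99% ± 0.99965 of counts in L8 and 22.6% ± 1.33 in L7 striatum. The other 42 members together differed the opposite way, with 4.44% ± 0.262 in L8 and 2.91% ± 0.242 in L7 striatum.

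Member by member, 24 of 26 differed between L8 and L7 in striatum, 16 higher and 8 lower in L8, where 85.1% of all features were called, 47.3% higher and 37.8% lower. In cortex 21 of 26 differed between L8 and L1, 14 higher and 7 lower in L8, where 70.4% of all features were called, 39.2% higher and 31.2% lower. The 21 members called in cortex were also called in striatum, with the same sign (21 of 24 and 21 of 21). Called or not, 25 of 26 members had the same sign in both tissues, and so did 169 of all 182 features tested in both. The shared sign is therefore not particular to the cluster. Across the 26 members the differences in striatum and cortex had a Pearson r of 0.954 and a Spearman rho of 0.822, over points that share mice and a gap in depth. Scaling by total counts moved the median of all features to 0.46 in striatum, against 0.17 with trimmed-mean scaling, and to 0.40 in cortex, against 0.12. With libraries thinned to the lowest total of the tissue, 23 members in striatum and 20 in cortex were called.

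The members moved in both directions. MI0001725 was the most reduced in L8, with a log2 difference of -1.75 (SE 0.07) in striatum and -1.59 (SE 0.14) in cortex. MI0003761 had -1.21 (SE 0.05) in striatum and -1.34 (SE 0.09) in cortex, and MI0000472 had -0.91 (SE 0.04) and -0.97 (SE 0.04). MI0000784 was 0.92 (SE 0.10) higher in L8 in striatum and 0.63 (SE 0.15) in cortex, and MI0003136 was 0.65 (SE 0.16) and 0.99 (SE 0.16) higher. L8 differs from the other L numbers in depth. Thinned counts keep the expected proportions of their library, so the numbers called after thinning, given above, are no test of depth. The part of depth or of any other property of the L number in these differences was not tested.

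**Figure D3:**
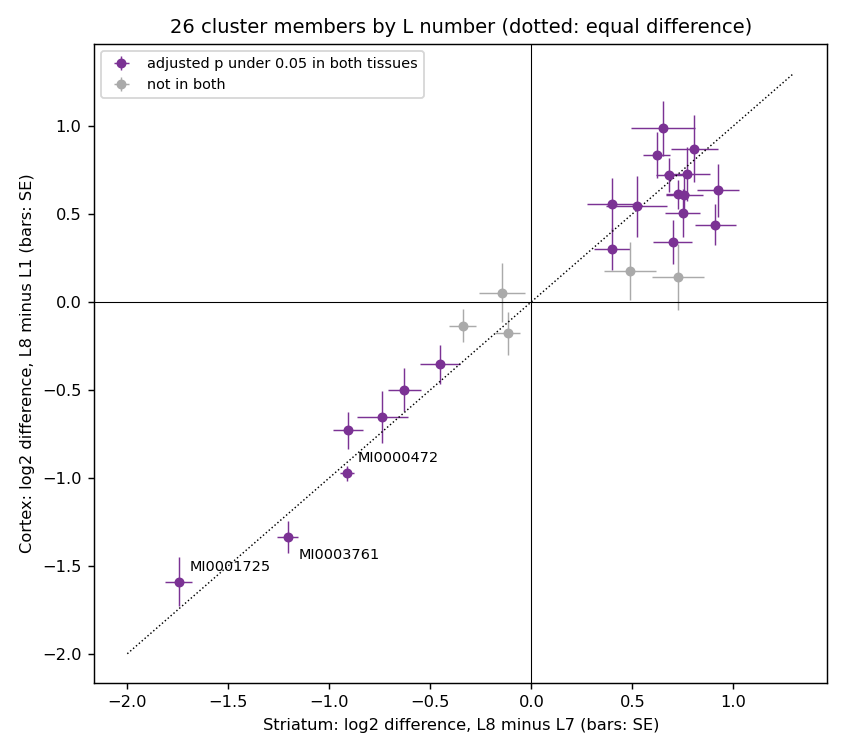
Log2 difference of L8 from L7 in striatum (x axis) and of L8 from L1 in cortex (y axis) for the 26 members tested in both tissues, with SE bars. The 21 members called in both tissues have the same sign in each, and MI0001725, MI0003761 and MI0000472 lie at the low end of both axes.

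The KI comparison asks whether mice with the zQ175 allele differ from their WT littermates, in the line without the neo cassette and in the line with it. In striatum few members were called. With so few, the direction of the calls cannot be set apart from the shares over all features. In neo-deleted mice 3 of 26 members rose and none fell, where 15.4% of all features were called, 8.51% higher and 6.91% lower. In neo-intact mice 2 of 26 rose and none fell, where 14.9% of all features were called, 7.45% higher and 7.45% lower. These counts depend on single libraries. Leaving out each of 31 libraries in turn gave 2 to 6 called members in neo-deleted and 1 to 5 in neo-intact mice. MI0000472 rose in both lines, MI0003757 and MI0003761 in neo-deleted mice, and MI0001725 in neo-intact mice. The median log2 change over members was 0.03 in neo-deleted and 0.02 in neo-intact mice, and over all features it was 0.03 in each. Scaling moved the split of calls. With total counts, 14 of 36 called features were higher in neo-deleted KI mice, against 16 of 29 with trimmed-mean scaling, and MI0000777 (-0.36) was then called lower. In neo-intact KI mice 10 of 32 were higher with total counts, against 14 of 28, and MI0000474 (-0.49) was then called lower. With DESeq2, 34 of 47 called features were higher in neo-deleted and 19 of 30 in neo-intact KI mice.

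MI0000472, the dominant member, was the one called in both lines. In neo-deleted L7 libraries it had 247622, 242506 and 266927 in KI mice, against 230090, 215437, 241405 and 234760 in WT mice. In neo-deleted L8 libraries it had 153305, 145546, 143724 and 145024 in KI mice, against 109894, 132060, 123894 and 118353 in WT mice. KI libraries lay above WT libraries in both, by a narrow margin in L7. In neo-intact L7 libraries it had 287443, 273142 and 283873 TMM-scaled CPM in KI mice, against a lowest value of 212277, a median of 237716 and a highest of 261588 in 7 WT mice. In neo-intact L8 libraries it had 140156, 141441, 134783, 142229 and 142764 in KI mice, against 131028 in the single WT mouse. The genotypes did not overlap in neo-intact L7, and in L8 there was only 1 WT library to compare with. The log2 change was 0.22 in neo-deleted mice, 16.4% higher in KI (SE 0.04, adjusted p = 0.000462, edgeR), and 0.18 in neo-intact mice, 13.7% higher in KI (SE 0.05, adjusted p = 0.00469, edgeR). Fitted inside a single L number, it was 0.16 in neo-deleted L7 (adjusted p = 0.227), 0.24 in neo-deleted L8 (adjusted p = 0.0167) and 0.24 in neo-intact L7 (adjusted p = 0.0176). Without the L number in the model the neo-intact value was -0.22.

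MI0003761 rose in neo-deleted KI mice. In L7 libraries it had 3118, 2810 and 3736 TMM-scaled CPM in KI mice, against 2834, 2458, 2820 and 2576 in WT mice. In L8 libraries it had 1548, 1685, 1640 and 1496 in KI mice, against 1019, 1051, 1145 and 1255 in WT mice. The genotypes overlapped in L7 and were apart in L8. The log2 change was 0.41, 33.1% higher in KI (SE 0.07, adjusted p = 2.15e-05, edgeR), with 0.29 inside L7 (adjusted p = 0.175) and 0.47 inside L8 (adjusted p = 0.003). In neo-intact mice it was 0.11 (SE 0.07, adjusted p = 0.357).

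MI0003757, a low member, also rose in neo-deleted KI mice. In L8 libraries it had 199, 207, 307 and 235 TMM-scaled CPM in KI mice, against 154, 162, 154 and 143 in WT mice. In L7 libraries, which held 5 to 15 counts of it, it had 87.2, 69.8 and 131 in KI mice, against 114, 43.7, 110 and 130 in WT mice. The genotypes were apart in L8 and overlapped in L7. The log2 change was 0.51, 42.3% higher in KI (SE 0.15, adjusted p = 0.0146, edgeR), with 0.61 inside L8 (adjusted p = 0.0231) and -0.04 inside L7 (SE 0.33). Without neo-deleted KI male 2, the highest of these libraries, it was 0.39 with an adjusted p of 0.0757. In neo-intact mice it was 0.34 (SE 0.18, adjusted p = 0.251).

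MI0001725 rose in neo-intact KI mice, on a call that several settings ended. In neo-deleted mice its log2 change was 0.22 (SE 0.08, adjusted p = 0.0864), inside L8 there it was 0.32 (adjusted p = 0.0438), and it became called in 15 of 31 fits that left out 1 library. In neo-intact L7 libraries it had 1545, 1514 and 1726 TMM-scaled CPM in KI mice, against a lowest value of 1109, a median of 1216 and a highest of 1562 in 7 WT mice. In neo-intact L8 libraries it had 465.7, 506, 449, 495 and 442 in KI mice, against 389 in the single WT mouse. The genotypes overlapped in L7. The log2 change in neo-intact mice was 0.27, 20.9% higher in KI (SE 0.09, adjusted p = 0.0325, edgeR), and 0.28 inside L7 (adjusted p = 0.226). Without that single L8 WT mouse (male 3) it was 0.26 with an adjusted p of 0.0773. It was not called with total counts (0.20, adjusted p = 0.145), without a filter (0.29, adjusted p = 0.0535) or with the 2 groups of the line alone (0.29, adjusted p = 0.0702). Without the L number in the model it was -0.45.

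**Figure D4:**
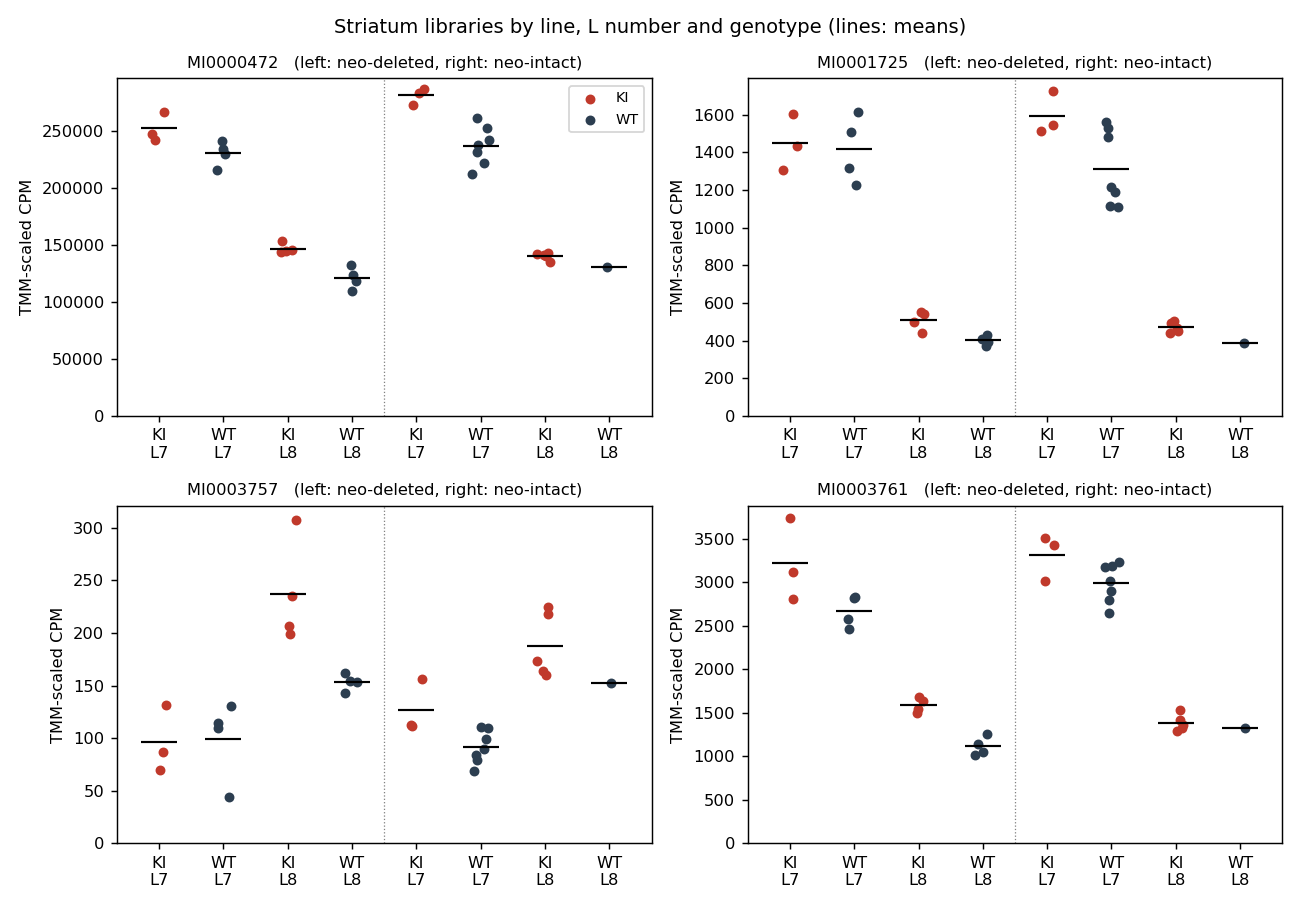
TMM-scaled CPM (y axes) in each striatum library of the 4 members called in a line, by line (neo-deleted left, neo-intact right), L number and genotype, with lines at the group means. L8 libraries lie below L7 libraries in either line for MI0000472, MI0001725 and MI0003761, and the genotypes lie closer together than the L numbers for MI0000472, MI0001725 and MI0003761.

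Separation of the genotypes inside an L number was counted for all 26 members, apart from neo-intact L8 with its single WT library. In neo-deleted L7 striatum 1 member (MI0000472) had every KI library above every WT library, where 4.26% of all features did, and none lay below, where 8.51% did. In neo-deleted L8 striatum 5 members lay above (MI0000472, MI0001725, MI0002469, MI0003757 and MI0003761), where 14.9% of all features did, and 2 lay below (MI0000777 and MI0003675), where 7.98% did. In neo-intact L7 striatum 2 members lay above (MI0000472 and MI0003757) and none below, where 5.85% and 4.79% of all features did. Of the 2 members below, MI0003675, second in level, had a log2 change of -0.24 in both lines (SE 0.12, adjusted p = 0.182 in neo-deleted and 0.251 in neo-intact mice), and MI0000777 had -0.29 in neo-deleted mice (SE 0.11, adjusted p = 0.0638). Neither was called.

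The cluster's summed share in L7 striatum was 25.8% ± 0.354 in KI and 24.7% ± 0.363 in WT mice of the neo-deleted line (SD, n = 3 and 4), and 27.2% ± 0.703 in KI and 25.03% ± 1.34 in WT mice of the neo-intact line (SD, n = 3 and 7). In L8 striatum it was 20.3% ± 0.577 in KI and 18.6% ± 0.841 in WT mice of the neo-deleted line (SD, n = 4 each). MI0000472 made up most of these sums. The other 42 members together took 2.84% ± 0.253 in KI and 3.01% ± 0.422 in WT mice of neo-deleted L7 striatum. In neo-intact L7 they took 2.72% ± 0.0826 in KI and 2.96% ± 0.121 in WT mice. In neo-deleted L8 they took 4.24% ± 0.233 in KI and 4.62% ± 0.0849 in WT mice. In neo-intact L8 they took 4.46% ± 0.318 in KI mice, against 4.40% in the single WT mouse. All these shares are given as a description, without a test.

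No member was called for a difference in the KI effect between neo-deleted and neo-intact mice, where 0.532% of all features were called. With edgeR, 2 members had an unadjusted p under 0.05, MI0003761 with a difference of 0.30 (SE 0.09, adjusted p = 0.278) and MI0000474 with 0.55 (SE 0.22, adjusted p = 0.81), and DESeq2 called none. The median SE of this difference over the 26 members was 0.16 on the log2 scale.

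**Figure D5:**
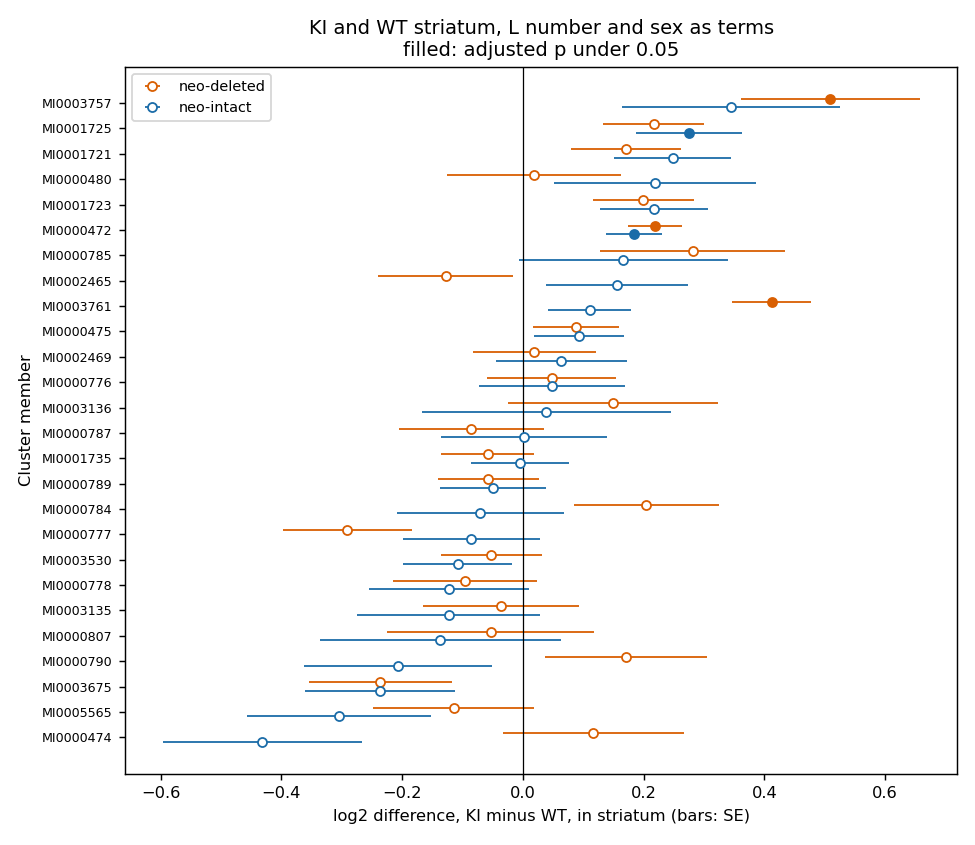
Log2 difference, KI minus WT, of the 26 members tested in striatum, in neo-deleted mice (orange) and neo-intact mice (blue), with SE bars and filled symbols for called members. MI0000472 is filled in both lines, at 0.22 in neo-deleted and 0.18 in neo-intact mice, and the open symbols lie on both sides of 0.

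In cortex no member was called in either line, and 0% of all features were. With edgeR, 1 of 26 members in each line had an unadjusted p under 0.05 (MI0000472 in neo-deleted and MI0000475 in neo-intact mice), and DESeq2 called no member. MI0000472 had a log2 change of 0.13 (SE 0.05, adjusted p = 0.575) in neo-deleted mice and 0.00 (SE 0.06) in neo-intact mice. In neo-deleted mice it was 0.18 (SE 0.07) inside L1 and 0.11 (SE 0.07) inside L8, and KI and WT libraries overlapped in both. The other 3 members called in striatum had log2 changes of -0.12 to 0.23 in cortex. In neo-deleted L1 cortex 1 member lay above (MI0001735) and 1 below (MI0000790) without overlap, where 1.61% of all features did in each direction, and in L8 cortex 2 lay above (MI0000776 and MI0000787), where 1.61% did, and none below, where 0.538% did. In neo-intact L1 cortex no member was apart, where 1.08% of all features lay above and 0% below. The median SE over members was 0.15 in neo-deleted and 0.17 in neo-intact cortex, against 0.12 in each line in striatum.

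In liver MI0000472 alone passed the filter on low counts. Its log2 change was -0.08 in neo-deleted mice (SE 0.22, adjusted p = 0.988, edgeR) and 0.51 in neo-intact mice (SE 0.22, adjusted p = 0.432, edgeR), and it was not called in either. No feature was called in either line (0%) with edgeR, where 4 features in neo-deleted and 13 in neo-intact mice had an unadjusted p under 0.05. In neo-deleted mice it averaged 803 ± 19.7 TMM-scaled CPM in KI and 931 ± 153 in WT libraries of L1 (SD, n = 2 and 3), and 477 ± 91.4 in KI and 499 ± 146 in WT libraries of L2 (SD, n = 6 and 4), with overlap in both. In neo-intact mice the direction differed by L number. L1 had 439 TMM-scaled CPM in 1 KI library and 597 in 1 WT library. In L2 it averaged 525.6 ± 99.1 in KI and 409 ± 200.0 in WT libraries (SD, n = 4 each), with overlap. In L3 it ran from 477 to 975 in 3 KI libraries and from 302 to 433 in 3 WT libraries.

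The spread of a member among WT libraries differed between members. It holds counting error, which is larger at low counts, as well as differences between mice. Inside an L number the coefficient of variation over WT libraries had a median over members of 20.7% in L7 striatum (11 libraries), 8.97% in L8 striatum (5), 17.99% in L1 cortex (8) and 18.4% in L8 cortex (7). Among the 4 members called in striatum, it was 6.36% in L7 and 7.5002% in L8 striatum for MI0000472. For MI0003761 it was 8.93% in L7 and 11.2% in L8 striatum. MI0001725 had 14.1% in L7 and 5.67% in L8 striatum. MI0003757 had 25.9% in L7, on a mean of 10.4 counts, and 4.46% in L8, on a mean of 69.6 counts.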

How the data were processed

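Small RNA libraries of 3 tissues were deposited as a table of estimated counts per hairpin and a table of FPKM values per hairpin, both made by the authors and used as deposited. Reads were handled with CASAVA 1.8.2 and build mm10, per the submitters' processing notes. The aligner and the counter are not given in the sources used here. Estimated counts were rounded to whole numbers. Differences were tested with edgeR 4.0.16 in R 4.3.3 (trimmed-mean scaling, filterByExpr with a minimum count of 10 and a minimum total of 15, robust quasi-likelihood test), over all features of a tissue, with Benjamini-Hochberg adjustment and a threshold of 0.05. KI comparisons carried sex and L number as terms, and comparisons of tissues carried sex and line. Standard errors were derived from the log2 change and its F statistic. Levels are TMM-scaled CPM of each fit, while floors, shares and ratios to liver use CPM of total counts, and FPKM gives the order of members. Figures were drawn with matplotlib 3.10.9.

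The members, lists and tests were chosen with earlier results of these data known. The members named are the 10 highest in brain, those called in a KI comparison, and the 3 largest and 3 smallest differences of each tissue comparison. Others, such as MI0000474 and MI0000790, were named after their values were seen. The libraries of a group come from separate mice, 1 library per mouse and tissue, so p-values of comparisons inside a tissue measure the spread between mice. Comparisons of tissues had mice on both sides. There were 1 for striatum and cortex inside L8, 2 for cortex and liver inside L1 and 16 for striatum and liver. Their main fits had no term for the mouse, so their p-values ignore this pairing. Alternatives were DESeq2 1.42.0, other scalings, no filter, no L number, single L numbers, the 2 groups of a line alone, the replicate number as a block, thinned counts, and each library left out. KI and WT mice with one replicate number are different animals. Intervals and floors cover counting error only.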

Additional observations from a re-analysis of the deposited data

Results flagged for a closer look

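Of 53 sets of values examined (1 quantity in 1 group of libraries), 5 held a library far from the others, where chance gives about 1 in 20. They come from 3 groups of libraries. In L8 cortex of neo-deleted KI mice, female 1 had 120099 TMM-scaled CPM of MI0000472, while the other 4 libraries had 105803 to 109839. In L8 cortex of neo-intact WT mice, a different library stood apart for each of 3 members. Male 2 had 98904 TMM-scaled CPM of MI0000472, against 107516 to 108957 in the other 3. Female 4 had 534 TMM-scaled CPM of MI0001725, against 485 to 487 in the others. Female 1 had 139 TMM-scaled CPM of MI0003757, against 73.5 to 81.9 in the others. In L2 liver of neo-intact KI mice, the cluster's share of counts was 0.0399% in male 2 and 0.0607% to 0.0645% in the other 3 libraries.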

How the results depend on the processing

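Across the alternatives other than leaving out a library, 81 counts of called or detected members stayed within 1.5 times the reported count and 13 did not. Of single members, 303 values kept their direction and side of the threshold, 18 reversed, 11 lost their call and 8 gained one. The cause was not tested. Counts of called members here and below show only how each setting moved them. The share of all features called under the same setting is not given beside them, so they are no result about the cluster. In neo-deleted striatum the 3 called members became 0 without the L number, 5 with DESeq2 size factors in edgeR, 6 with DESeq2, 0 inside L7 and 5 inside L8. In neo-intact striatum the 2 became 4 with DESeq2, and 1 without a filter, with the 2 groups of the line alone and inside L7. In neo-intact cortex 7 were called without the L number. Striatum against liver gave 35 called members without a filter, where more members were tested. In liver, 1 member was detected with a minimum of 10 counts and 3 after thinning, against 5.

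Without the L number, KI changes reversed in neo-intact striatum (MI0000472 -0.22, MI0001725 -0.45, MI0003761 -0.42) and in neo-deleted cortex (MI0000472 -0.10, MI0003761 -0.26). The difference between lines reversed for MI0001725 (0.46) and MI0003757 (-0.21) in striatum and for MI0000472 (-0.50) in cortex. MI0003757 was -0.043 inside L7 in neo-deleted striatum. MI0000472 in neo-intact cortex was -0.063 with total counts, -0.031 without a filter, -0.019 with the 2 groups alone and -0.0097 inside L1. In neo-deleted cortex MI0003757 was -0.016 with total counts, MI0001725 was 0.19 inside L1 and MI0003761 was -0.015 inside L8. MI0000784 between striatum and cortex was 0.094 with all mice of L8 and 0.032 with total counts.

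Leaving out each of 31 striatum libraries gave 2 to 6 called members in neo-deleted and 1 to 5 in neo-intact mice. The neo-deleted count was 6 without neo-deleted WT F4, and 5 without neo-deleted KI F1, F2 or F3, neo-deleted WT F1, neo-intact KI M1, F1 or F2, or neo-intact WT F1, F2, F3, F4 or M2. The neo-intact count was 1 without neo-intact WT M3, 5 without neo-deleted KI F3 or F4, and 4 without neo-deleted KI M2, M4, F1 or F2, neo-deleted WT F1 or M3, or neo-intact WT F1, F2 or M2. In cortex MI0003757 ran from -0.12 to 0.066 and MI0003761 from -0.0092 to 0.12 in neo-deleted mice, and MI0000472 from -0.021 to 0.029 in neo-intact mice. In liver MI0000472 ran from -0.22 to 0.026 in neo-deleted mice. Striatum against cortex gave 8 to 14 called members, and cortex against liver 20 to 23.

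With the replicate number as a block, 3 members in neo-deleted and 2 in neo-intact striatum were called, and 0 in cortex and liver. Same-numbered KI and WT libraries had a median correlation of deviations of -0.12 to 0.09 by tissue and line, so they share only a number. Inside neo-intact L8 striatum no fit was made, with 1 WT library.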
